A study of Mus musculus with 36 samples.

Results

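The ERVL-MaLR families are a set of LTR retrotransposon families. Their transcripts were followed here in a mouse embryonic fibroblast (MEF) line with forced major satellite repeat (MSR) transcription and in a Control line. They were taken from the count table as every repeat entry annotated with family ERVL-MaLR and class LTR, which gave 108 of 1561 repeat families. By the start of their names 59 are MLT, 29 ORR1 and 20 MT families, and 56 are internal regions (names ending in -int) while 52 are LTRs. After the filter on low counts 104 were tested, and the 4 left out were all MLT internal regions, 1 of them at 0 in every library.

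RNA was measured in 36 libraries, as 12 groups of 3 replicates. Both lines are mixed PiggyBac cultures, selected with hygromycin and not single clones, that carry a doxycycline-inducible dCas9 with a guide against the MSR. MSR-dCas9-Control holds dCas9 with no effector, and MSR-dCas9-Activator holds dCas9 fused to the VPR activation domain. Each line was sampled uninduced, after induction with 10 ng/ml doxycycline, and again at 3, 6, 12 and 24 h once the drug had been washed out. Induction lasted 24 h in the Control line and 6 h in the Activator line, so the line and the hours of doxycycline cannot be told apart in the induced and later groups. The study describes the replicates of a line as biological replicates, while the labels only number them, and p-values measure the spread between these samples.

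MaLR elements (mammalian apparent LTR retrotransposons) are non-autonomous relatives of the ERVL endogenous retroviruses. A complete element has an internal region between a pair of LTRs, and the LTR holds the promoter and the end of the transcript, while recombination between LTRs leaves solitary LTRs. The MT and ORR1 groups expanded in rodents and the MLT1 group is older and shared across mammals. LTRs of the MT group are known for driving transcripts in mouse oocytes, among them an oocyte form of Dicer1. Counts were summed by the authors over all copies of a family, so none of the values below has a genomic position. Each family was tested between groups. Internal regions and LTRs were set beside each other by ratios and by fitted changes.

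Genes held 27376846 to 57371803 counts per library and ERVL-MaLR members 657415 to 1487705, with a median of 1041356. Of the members, 93 had a mean of at least 100 normalised counts. The forced transcript itself, GSAT_MM, stood at 1298, 1342 and 1383 normalised counts in the induced Control libraries and at 97607, 149207 and 1043480 in the induced Activator libraries. Before induction it was already higher in the Activator line, at 4168, 2200 and 3790 normalised counts against 1538, 1401 and 1409 in the Control line. The uninduced Activator libraries were thus not free of raised MSR transcripts. All 11 fibroblast markers were in the table and 10 had a mean above 1 CPM (counts scaled to the library's gene total), led by Col1a1. They summed to 22014 to 34988 CPM in the 18 Control libraries and 12238 to 27657 CPM in the 15 Activator libraries from induction on, ranges that overlap. The 9 oocyte and 2-cell markers summed to 0.140 to 1.69 CPM and 4.41 to 23.5 CPM in the same libraries, with Gdf9 the only one of them with a mean above 1 CPM. The 4 endothelial markers summed to 0.577 to 2.07 and 14.2 to 43.1 CPM, 2 of them with a mean above 1 CPM. Epithelial markers summed to 0.889 to 1.79 and 1.97 to 4.64 CPM, hepatocyte markers to 0.475 to 3.79 and 1.60 to 7.92, and pluripotent markers to 0.323 to 1.12 and 0.747 to 3.38. Blood markers were at 3.73 to 5.62 and 3.50 to 10.1 CPM, and neuron markers at 14.9 to 30.7 and 6.65 to 23.5. The part of these marker changes in the results below was not tested, and in bulk RNA fewer cells of a type and less RNA per cell cannot be told apart.

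Between the uninduced lines, ERVL-MaLR families were not separated. None of the 104 members was called by edgeR's quasi-likelihood test (an adjusted p under 0.05 and a log2 fold change beyond 0.5), against 0.067% of all repeat families, and DESeq2 also called 0. At an unadjusted p under 0.05 there was 1 member. The median log2 fold change of the members was 0.04, beside 0.03 over all 1492 families tested. Summed over all members, the counts came to 2.31% ± 0.291 of the TMM-scaled gene counts in the Activator line and 2.26% ± 0.134 in the Control line (SD, n = 3, two-sided exact permutation p = 0.9).

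After induction a limited set of families moved with TMM scaling, and nearly all of them were internal regions. Of the 104 members, 15 were higher and 3 lower in the Activator line, 17.3%, beside 32.5% of all repeat families called (20.2% higher and 12.3% lower), so that the members were called at a lower share than the background. Counting the regions apart, 14 of 52 internal regions were higher and 3 lower, while 1 of 52 LTRs was higher and none was lower. Scaled to mitochondrially encoded mRNAs, 6 internal regions were higher and 5 lower, while no LTR was higher and 5 were lower. In that scaling 42.3% of all repeat families were called. The summed counts did not separate the lines, with 2.27% ± 0.359 of gene counts in the Activator line and 2.30% ± 0.321 in the Control line (SD, n = 3, two-sided exact permutation p = 0.9).

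MLT1I-int, the internal region of an old mammalian family, rose most among the well-counted members. In the 3 induced Control libraries it held 34, 19 and 14 normalised counts, and in the 3 induced Activator libraries 464, 216 and 593. The groups did not overlap, although replicate 2 of the Activator line stood below the other two. The fitted log2 fold change was 4.15 ± 0.27 (SE, adjusted p = 8.75e-18, edgeR), and the means differed 19.0-fold. Before induction the Activator line held 28, 32 and 33, within the range of 14 to 36 of all 18 Control libraries. The LTR of the same name, MLT1I, overlapped between the induced lines, with 1660 to 2531 normalised counts in the Activator line and 1584 to 2323 in the Control line, and a log2 fold change of 0.09 ± 0.14 (SE, adjusted p = 0.605, edgeR).

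Other MLT internal regions rose by less. MLT1A1-int held 96, 157 and 145 normalised counts in the induced Control libraries and 256, 182 and 329 in the Activator libraries, without overlap (log2 fold change 0.95 ± 0.19 SE, adjusted p = 1.84e-05, edgeR). MLT1J-int went from 438, 581 and 497 to 1019, 576 and 1203, where the Activator replicate 2 lay inside the Control range (0.88 ± 0.16 SE, adjusted p = 2.20e-06, edgeR). Again replicate 2 of the Activator line was the lowest of its group. MLT1G3-int stood at 129, 152 and 135 against 242, 130 and 307, overlapping through that library (0.70 ± 0.21 SE, adjusted p = 0.00416, edgeR). In all, 9 of 26 MLT internal regions were higher and 2 lower, with a median log2 fold change of 0.34, compared with 0.00 for the 29 MLT LTRs. Over all repeat families 20.2% were higher and 12.3% lower. MLT1I-int and MLT1A1-int separated the lines in every library, and the other two overlapped.

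**Figure D1:**
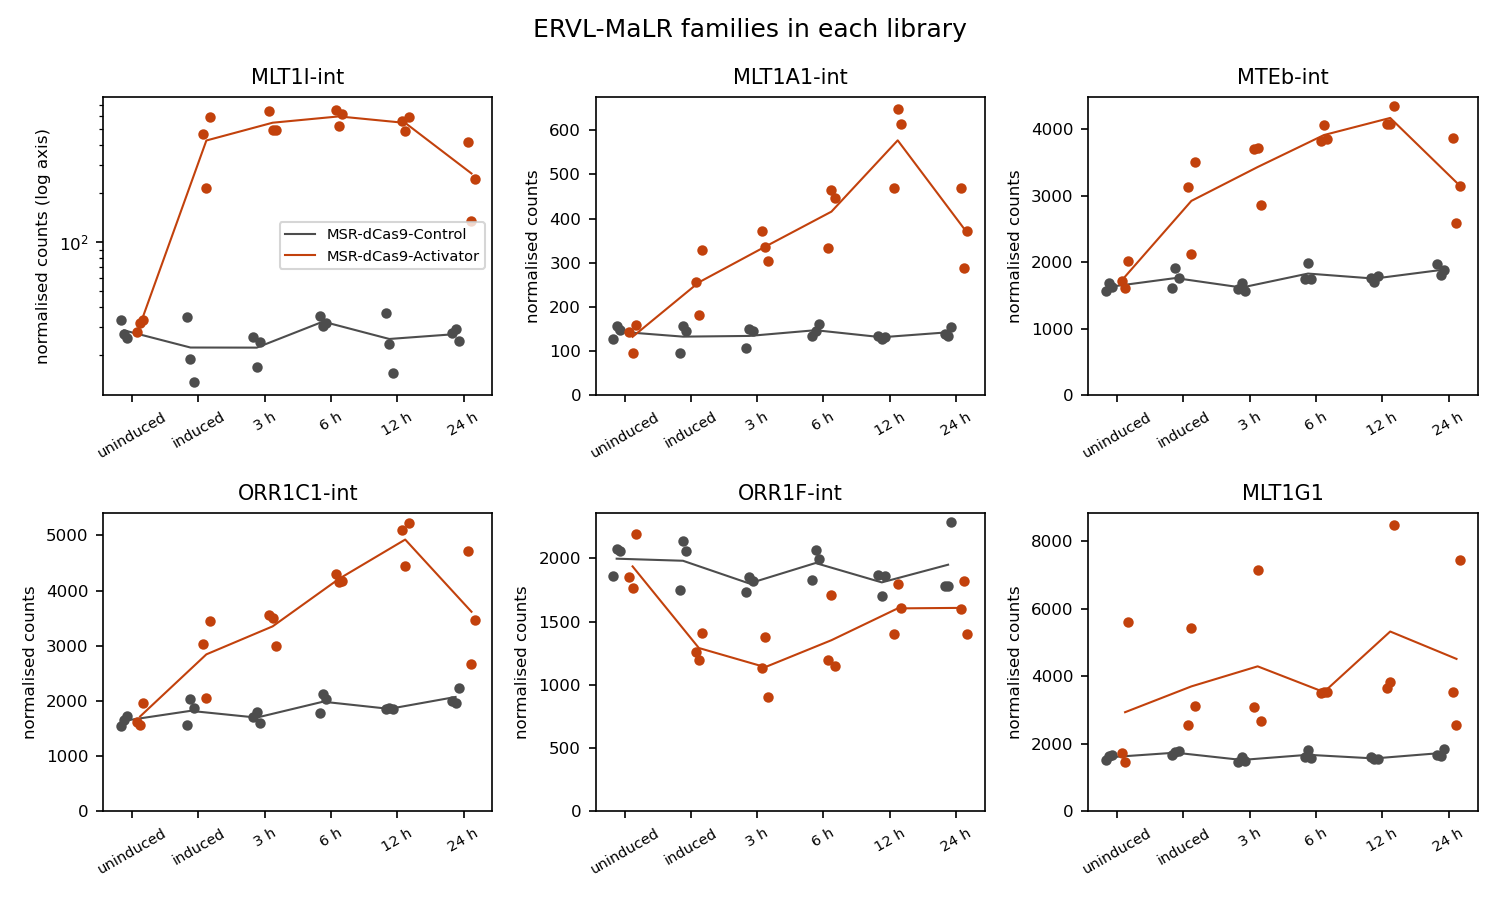
Normalised counts (vertical axis, log scale for MLT1I-int and linear from 0 for the others) of 6 ERVL-MaLR families in each of 36 libraries, by sampling time. Points are libraries and lines join group means (n = 3); MLT1I-int in the Activator line goes from 28 to 33 before induction to 216 to 593 after it, ORR1F-int falls to 1198 to 1413, and MLT1G1 is scattered within the Activator line.

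Some sparse MLT internal regions were also called. They are named here after their values were seen, because they lie below the mean set for named families. MLT1N2-int had 0 reads in all 18 Control libraries and in the 3 uninduced Activator libraries, and 12, 9 and 18 reads in the induced Activator libraries, at least 11.6-fold higher against a floor of 3 reads over the Control group. MLT1E1A-int rose from 21, 17 and 5 reads to 108, 32 and 71. MLT1E-int moved the other way, from 13, 20 and 6 reads to 3, 4 and 8. These reads overlap, while the normalised counts, with means of 12.8 and 4.51, do not. These counts are small, and counting error alone is a large part of each value. MLT1N2-int was the only tested member at 0 in every Control library and passed the filter through the groups where it was high, and without it 14 members were higher after induction, 49 at 12 h and 13 at every time from induction on.

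The one LTR called higher after induction was MLT1G1, and its values were uneven. The induced Control libraries held 1674, 1751 and 1796 normalised counts and the Activator libraries 2548, 5425 and 3131 (log2 fold change 1.08 ± 0.42 SE, adjusted p = 0.0371, edgeR). Before induction 1 Activator library already stood at 5604, beside 1741 and 1468 in the other two. Within the Activator line the change on induction was 0.41 ± 0.42 (SE, adjusted p = 0.433, edgeR). The call at induction was lost in 6 of 9 fits that left out a library or a replicate number, among them those without Activator replicate 2 or without any 1 of the Control libraries, and also with gene library sizes without TMM. It was also lost at 3 h without Activator replicate 2 and at 24 h without Activator replicate 3.

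Among the MT families, 2 of 20 were higher after induction and none lower, both internal regions. This was a lower share than the 20.2% higher and 12.3% lower over all repeat families. MTEb-int rose from 1608, 1919 and 1754 to 3124, 2129 and 3507 normalised counts, without overlap (log2 fold change 0.72 ± 0.14 SE, adjusted p = 8.63e-06, edgeR). Its LTR, MTEb, held 14724 to 20094 in the Control line and 14157 to 19875 in the Activator line (-0.05 ± 0.13 SE, adjusted p = 0.743, edgeR). MTB_Mm-int, named after its values were seen, was the other family called (0.51 ± 0.14 SE, adjusted p = 0.00164, edgeR). The MT LTRs with the most counts were not called. MTD held 95739, 129466 and 121963 in the Control line and 106325, 90514 and 120036 in the Activator line, and MTC, whose LTR is the one known for oocyte Dicer1, held 55404, 73359 and 70533 and 63521, 53377 and 71074. Both overlapped between the lines.

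Among the ORR1 families, 3 of 29 were higher and 1 was lower, below the 20.2% higher and 12.3% lower of all repeat families. ORR1C1-int rose from 1567, 2033 and 1866 to 3033, 2057 and 3446 normalised counts (log2 fold change 0.63 ± 0.14 SE, adjusted p = 0.000142, edgeR), and ORR1A4-int from 5167, 6184 and 6074 to 8995, 6593 and 10217 (0.57 ± 0.13 SE, adjusted p = 0.000153, edgeR). In both, every Activator library lay above every Control library. ORR1F-int fell, from 1747, 2136 and 2057 to 1263, 1198 and 1413 (-0.61 ± 0.14 SE, adjusted p = 0.000183, edgeR), also without overlap. MLT1D-int was the other well-counted family that fell, from 358, 433 and 551 to 307, 282 and 325 (-0.53 ± 0.17 SE, adjusted p = 0.00585, edgeR). Fitted to the induced libraries alone, MTEb-int, MLT1G3-int, ORR1C1-int, ORR1A4-int, ORR1F-int and MLT1D-int lost their calls, and scaled to mitochondrially encoded mRNAs only MLT1I-int, ORR1F-int and MLT1D-int of the named families kept theirs. The mitochondrial scaling moved the median log2 fold change of all repeat families from 0.00 to -0.36. With DESeq2 size factors MLT1D-int lost its call as well, at a log2 fold change of -0.45. The direction of each of the 10 named families was the same under all 10 alternatives. Leaving out Activator induced replicate 3 ended the calls of MLT1G3-int, ORR1C1-int and ORR1A4-int, leaving out Control induced replicate 1 that of ORR1A4-int, and leaving out Control induced replicate 3 or Activator induced replicate 2 that of MLT1D-int.

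The division between internal regions and LTRs can be read within each library, with no scaling between libraries, as the ratio of all internal counts to all LTR counts. After induction it was 0.173, 0.161 and 0.166 in the Control libraries and 0.187, 0.182 and 0.188 in the Activator libraries. The groups did not overlap, and the ratio of their means was 1.12 (two-sided exact permutation p = 0.1, the smallest that 3 against 3 allows). The Activator ratio was also above the Control ratio without overlap at 3, 6 and 12 h, by 1.12, 1.09 and 1.05 times (exact permutation p = 0.1 each), and overlapped it before induction and at 24 h (exact p = 0.4 at both). It rose above the Control in each name group after induction, by 1.19 times in MLT, 1.11 times in MT and 1.12 times in ORR1 families, each without overlap. At 24 h the MLT ratio was still above the Control without overlap, by 1.06 times (exact permutation p = 0.1). The MT and ORR1 ratios overlapped then. Leaving MLT1I-int out of the sum over all members left the log2 ratio of all members at 0.16 after induction. MLT1I-int is a larger part of the MLT sum, and its part in the MLT ratio is not given here. Of 47 families with both regions tested, the internal region had the higher log2 fold change in 37 after induction, with a median difference of 0.30, and in 34 before induction, with a median difference of 0.03. These pairs share libraries and the LTRs hold many more counts, so the counts are a description.

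**Figure D2:**
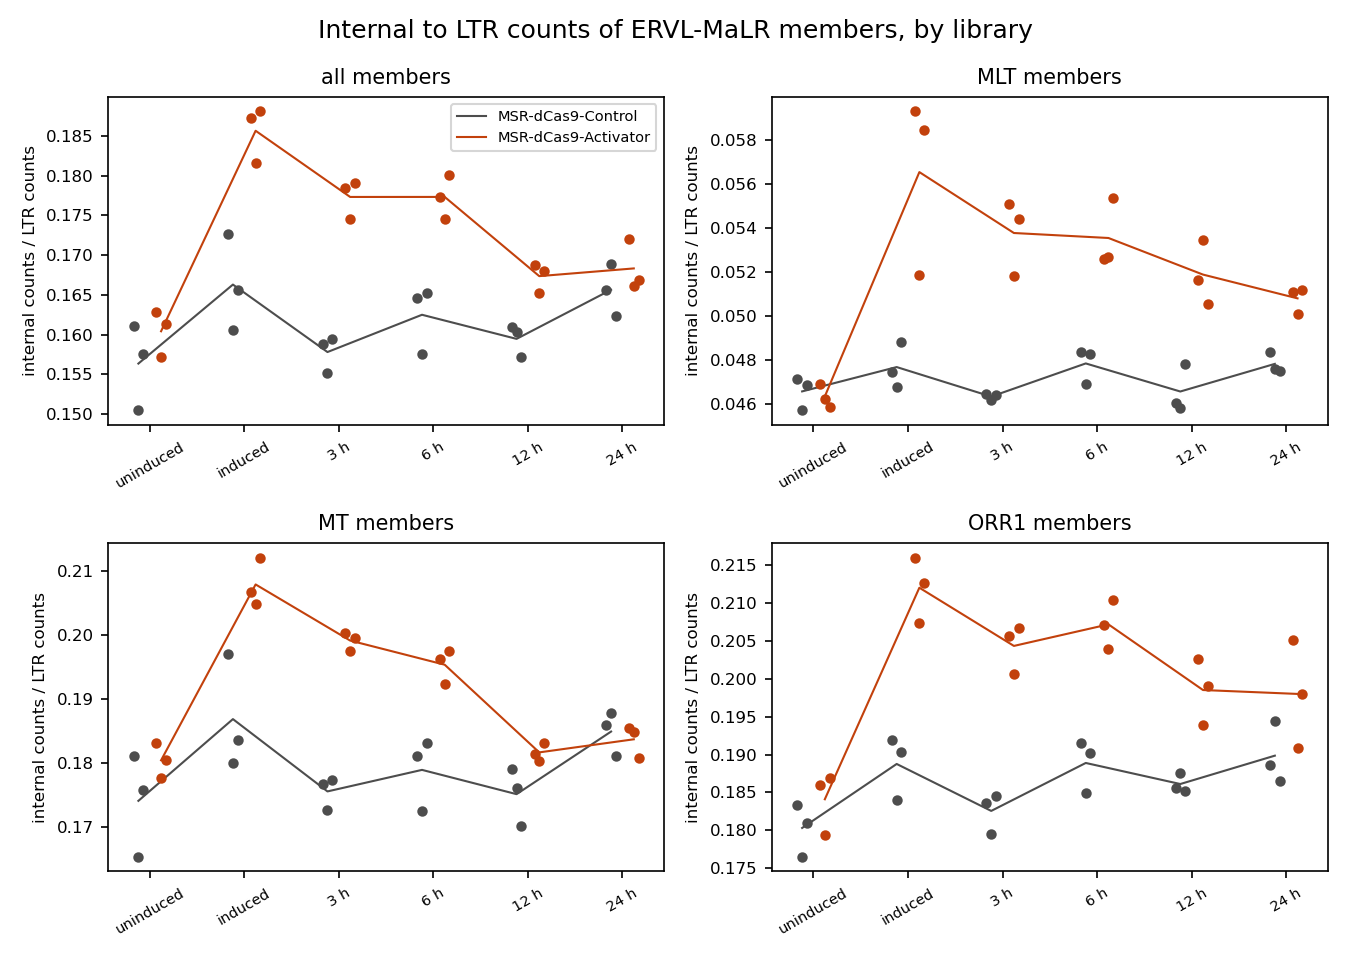
Ratio of summed internal counts to summed LTR counts (vertical axis, not starting at 0) in each library, for all ERVL-MaLR members and for the MLT, MT and ORR1 families, by sampling time. Points are libraries and lines join group means (n = 3); for all members the induced Activator libraries sit between 0.182 and 0.188 and the induced Control libraries between 0.161 and 0.173.

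ERVL families, the closest relatives, also had a higher internal to LTR ratio in the induced Activator line, 0.397 ± 0.0109 against 0.345 ± 0.0153 (SD, n = 3, two-sided exact permutation p = 0.1). At 24 h the ratio over all ERVL-MaLR members overlapped, though not that of the MLT members alone. The ERVL ratio was still 1.35 times the Control value then (exact permutation p = 0.1). The difference between ERVL-MaLR and ERVL was not tested. By share of families called after induction, ERVL-MaLR stood at 17.3%, ERVL at 24.8%, ERVK at 41.9% and ERV1 at 51.4%.

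After doxycycline was removed, the number of families called was highest at 12 h with scalings on genes, and at 6 h when scaled to mitochondrially encoded mRNAs (49, of which 40 were lower). With TMM scaling 24 members were higher and 3 lower at 3 h (26.0%, beside 46.8% of all repeat families, 31% higher and 15.8% lower). There were 26 higher and 3 lower at 6 h (27.9%, beside 45.6% of all families, 34.4% higher and 11.2% lower). At 12 h 50 were higher and 1 was lower (49.0%, beside 51.1% of all families, 45.4% higher and 5.76% lower). By 24 h 22 were higher and none lower (21.2%, beside 31.3% of all families, 29% higher and 2.28% lower). With DESeq2 size factors 84 of 104 members were higher at 12 h and 1 was lower, beside 59.0% of all families called. With TMM scaling the 12 h share was close to that of all families, and the shares at 3, 6 and 24 h were below it. The median log2 fold change of the members was 0.20, 0.24, 0.48 and 0.26 at these times, beside 0.11, 0.21, 0.45 and 0.24 over all families, close to the members, and scaled to mitochondrially encoded mRNAs the member medians were -0.37, -0.45, -0.16 and -0.01. In that scaling the 12 h calls were 14 higher and 7 lower, beside 50.5% of all families called. The mRNAs used for it took up 2.43% ± 0.467 of gene counts in the Activator line at 12 h and 1.68% ± 0.202 in the Control line, without overlap, while genes with a mean of at least 100 had a median log2 fold change of -0.25 with TMM and -0.88 in the mitochondrial scaling.

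LTRs were called most often at 12 h. With TMM scaling 22 of 52 LTRs were then higher, against 1, 4, 6 and 4 after induction and 3, 6 and 24 h after removal, and scaled to mitochondrially encoded mRNAs none of the 52 LTRs was higher at any time. Internal regions called higher numbered 14, 20, 20, 28 and 18 of 52 from induction to 24 h, and 6, 11, 9, 14 and 9 in the mitochondrial scaling. Called lower in the mitochondrial scaling were 5, 22, 23, 1 and 0 LTRs and 5, 14, 17, 6 and 0 internal regions. By name group the 12 h calls were 30 of 55 MLT, 7 of 20 MT and 13 of 29 ORR1 families higher with TMM scaling. Over all repeat families 20.2%, 31%, 34.4%, 45.4% and 29% were called higher from induction to 24 h. The share over all families was thus also highest at 12 h.

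**Figure D3:**
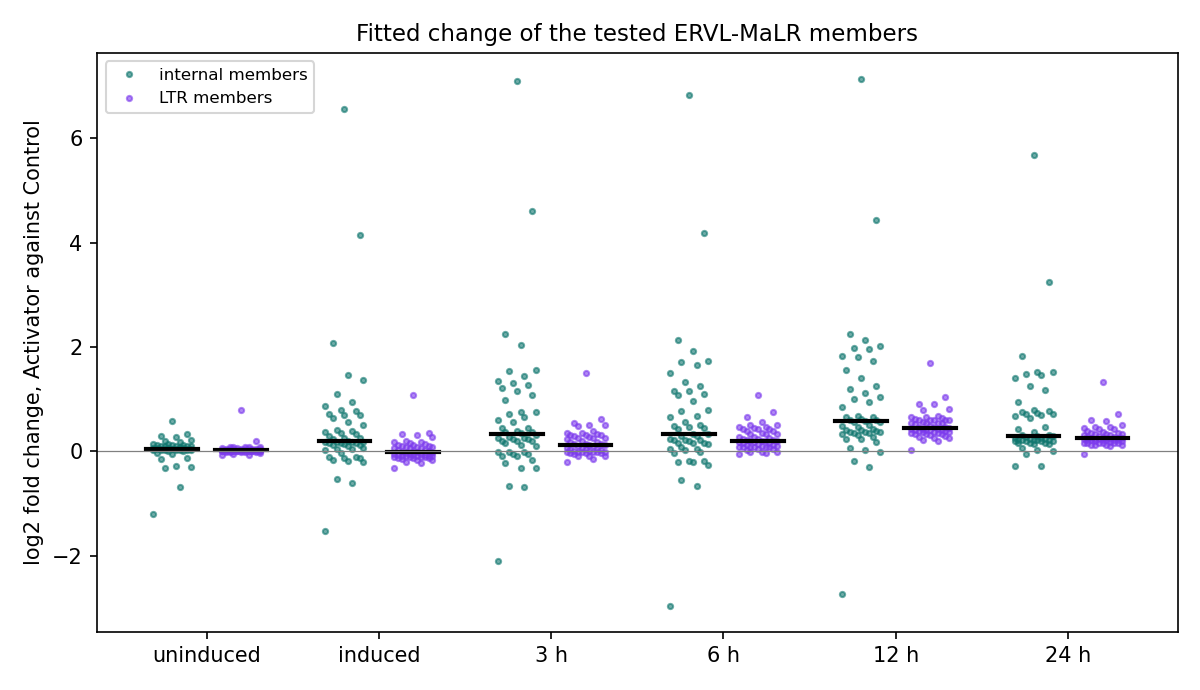
Fitted log2 fold change of the Activator against the Control line (vertical axis) for the 52 internal and 52 LTR members tested, at each sampling time, with TMM scaling on genes. Each point is a family and the black bar is the median of the 52; after induction the internal median is 0.19 and the LTR median -0.02, at 12 h 0.58 and 0.46, and scaled to mitochondrially encoded mRNAs the 12 h medians are -0.06 and -0.19.

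The LTRs with the most counts in each name group were not called at 12 h. MTD held 124932, 118970 and 124866 normalised counts in the Control line at 12 h and 146340, 164828 and 161864 in the Activator line, a log2 fold change of 0.36 ± 0.12 (SE, adjusted p = 0.008, edgeR) that did not reach the limit of 0.5. MTC, MLT1A0, MLT1B, ORR1D1 and ORR1F lay between 0.22 and 0.40, none of them called. Scaled to mitochondrially encoded mRNAs all 6 were negative, from -0.25 to -0.42. Other abundant LTRs were called. MTA_Mm, named after its values were seen, was the MT LTR called at 12 h, with 40151, 38154 and 40758 in the Control line and 64264, 70485 and 74961 in the Activator line (0.81 ± 0.12 SE, adjusted p = 7.98e-09, edgeR). The internal region of that name, MTA_Mm-int, was not called (0.35 ± 0.12 SE, adjusted p = 0.00982, edgeR), so that here the LTR had the larger fitted change. Also named after their values were seen, ORR1A2 (36396, 34548 and 36528 against 51144, 54031 and 58258 normalised counts) and ORR1B1 (35722, 33853 and 35179 against 48649, 52202 and 53157) were among the 6 ORR1 LTRs called higher, in each case with no overlap.

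Summed over all members, the counts rose to 3.26% ± 0.195 of TMM-scaled gene counts in the Activator line at 12 h, against 2.40% ± 0.0583 in the Control line, and 2.98% ± 0.228 against 2.51% ± 0.188 at 24 h (SD, n = 3, two-sided exact permutation p = 0.1 each, the smallest possible, without overlap). In the mitochondrial scaling the 12 h log2 ratio was -0.18 instead of 0.44. As a share of all repeat counts, which include the satellites, members made up 8.12% ± 0.565 in the Activator line at 24 h and 8.94% ± 0.242 in the Control line, lower in the Activator line and without overlap (exact permutation p = 0.1). All repeat families without satellites came to 39.8% ± 6.32 of gene counts in the Activator line at 12 h and 26.7% ± 0.193 in the Control line.

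**Figure D4:**
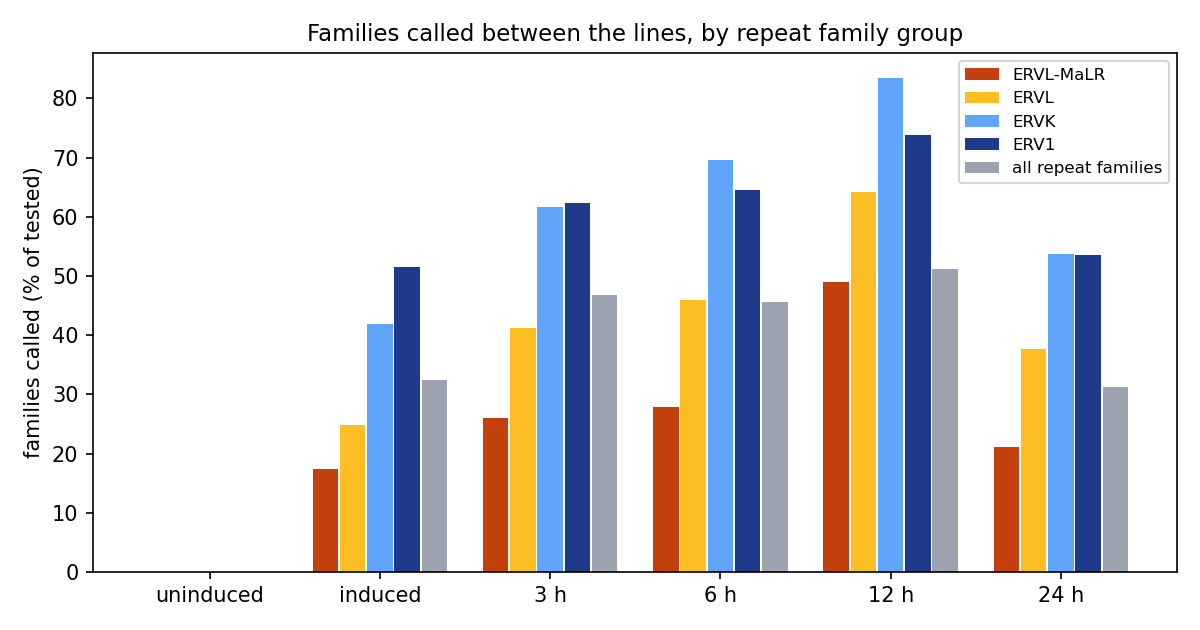
Share of tested families called between the Activator and Control lines in either direction (vertical axis, percent, from 0) at each sampling time, for ERVL-MaLR, ERVL, ERVK and ERV1 families and for all 1492 repeat families, with TMM scaling on genes. ERVL-MaLR is the lowest bar of the 4 LTR groups at each time from induction on, 17.3% after induction and 49.0% at 12 h.

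The time courses of the named families had different shapes. MLT1I-int stayed near its induced level, at 649, 496 and 495 normalised counts at 3 h and 557, 486 and 592 at 12 h, and was at 416, 136 and 246 at 24 h, when its log2 fold change was 3.26 ± 0.27 (SE, adjusted p = 1.63e-14, edgeR). MLT1A1-int climbed further after doxycycline was removed, to 371, 335 and 303 at 3 h and 469, 649 and 614 at 12 h, with a log2 fold change of 2.13 ± 0.19 at 12 h (SE, adjusted p = 1.15e-18, edgeR). At 24 h it stood at 470, 289 and 373 beside 138, 135 and 154 in the Control line. Every Activator library was above every Control library of the same time from induction on, for both families.

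MTEb-int and ORR1C1-int were highest at 12 h as well. MTEb-int reached 4073, 4077 and 4349 normalised counts and was at 3866, 2587 and 3140 at 24 h. ORR1C1-int reached 5094, 4452 and 5225 and was at 4716, 2675 and 3460 at 24 h. In both, every Activator library at 24 h was above the Control libraries, which held 1801 to 1966 and 1973 to 2242. MT-int followed another course. It was not called after induction, with 1633, 1650 and 1709 in the Control line and 1316, 1431 and 1932 in the Activator line, and stood at 3139, 2194 and 3080 at 24 h against 1580, 1588 and 1929 (log2 fold change 0.72 ± 0.15 SE, adjusted p = 3.12e-05, edgeR). MLT1F1-int was likewise not called after induction (0.24 ± 0.21 SE, adjusted p = 0.338, edgeR) and was at 247, 160 and 210 at 24 h against 135, 117 and 108 (0.77 ± 0.20 SE, adjusted p = 0.000976, edgeR).

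The 2 well-counted families that were lower after induction were no longer called at 12 h. ORR1F-int was lower at 3 h, with 1134, 1379 and 906 normalised counts against 1730, 1856 and 1818, and at 6 h, and was not called at 12 h, where 1405, 1800 and 1608 overlapped the Control range of 1705 to 1865 (log2 fold change -0.18 ± 0.14 SE, adjusted p = 0.258, edgeR). MLT1D-int was lower at 3 h, with 264, 350 and 193 against 409, 470 and 416, and was not called at 12 h (-0.29 ± 0.16 SE, adjusted p = 0.114, edgeR). The call of MLT1D-int at 3 h was lost without Activator replicate 3, and that of ORR1F-int at 6 h without Activator replicate 1 or 3. With DESeq2 size factors both families lost their calls at 6 h, at log2 fold changes of -0.48 for MLT1D-int and -0.37 for ORR1F-int. Over the 5 times from induction on, 14 of 104 members were higher at every time, 50 were higher at least once, 3 were lower at least once and 51 were not called at any time, with TMM scaling. As shares these were 13.5%, 48.1%, 2.88% and 49.0% of the members, beside 17.4%, 46.8%, 19.0% and 34.5% of all 1492 families. At 24 h the mitochondrial scaling ended the calls of the named families other than MLT1I-int and MLT1A1-int, with no change of direction.

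Within the lines, members were called in the Activator line and not in the Control line, and the difference was tested as well. Against its own uninduced libraries the induced Activator line had 15 members higher and 1 lower (32.0% of all families called), and at 24 h 31 higher and none lower (37.9% of all families). Scaled to mitochondrially encoded mRNAs these were 5 higher and 51 lower after induction and 18 higher at 24 h. The Control line had 0 members called by edgeR and by DESeq2 in both comparisons (0% and 0.067% of all families), with 1 member at an unadjusted p under 0.05 after induction and 6 at 24 h. These comparisons share libraries with those between the lines. In a direct test of the difference between the lines, 9 members differed in their change on induction (beside 21.6% of all families) and 19 in their change from uninduced to 24 h (beside 20.8%).

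From 12 to 24 h in the Activator line 3 members were called, beside 3.62% of all families. MLT1I-int was lower at 24 h (log2 fold change -1.11 ± 0.21 SE, adjusted p = 0.00137, edgeR) and so was MLT1A1-int (-0.61 ± 0.18 SE, adjusted p = 0.0322, edgeR). MLT1E-int was higher (2.36 ± 0.69 SE, adjusted p = 0.0322, edgeR), from 2, 1 and 5 reads to 19, 24 and 3, groups that overlap. Without the replicate number in the fit none was called, and leaving out Activator 24 h replicate 2, the lowest library for MLT1I-int, left 1 call while leaving out replicate 1 of that group gave 10. Leaving out Activator 12 h replicate 1 or 2 also left 1 call.

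The counts of calls after induction depended on which libraries were used. Without every replicate 1 there were 11 members called and without every replicate 2 there were 26, against 18 with all. In the Activator line at 24 h against uninduced, 52 were called instead of 31 when uninduced replicate 3 was left out, 20 without every replicate 1 and 58 without every replicate 3.

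Genes of the machinery that silences endogenous retroviruses were read from a list of 40, of which 39 were in the table and 38 were tested. KRAB zinc finger proteins recruit Trim28 and Setdb1 to retroviral sequence, where Setdb1 methylates histone H3 at lysine 9, while DNA methyltransferases and histone chaperones hold the silent state. After induction 1 gene was higher and 8 were lower, beside 46.8% of all genes called (26.1% higher and 20.7% lower). At 12 h 4 were higher and 21 lower, beside 66.6% of all genes called (38.3% higher and 28.3% lower). The list's median log2 fold change was -0.10 and -0.63, beside 0.10 and 0.15 over all 28542 genes and -0.07 and -0.25 over genes whose mean reached 100 normalised counts, so that after induction the list lay near the well-counted genes. Scaled to mitochondrially encoded mRNAs those genes had medians of -0.45 and -0.88.

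Setdb1 held 4053, 3852 and 4297 normalised counts in the induced Control libraries and 1931, 2428 and 1871 in the Activator libraries (log2 fold change -0.98 ± 0.15 SE, adjusted p = 2.45e-06, edgeR). At 12 h it was at 1054, 1752 and 1180 against 4440, 4288 and 4237, with no overlap at either time. Trim28, the corepressor, overlapped between the lines after induction, with 11572 to 12309 in the Control line and 10780 to 13117 in the Activator line (0.00 ± 0.08 SE, adjusted p = 0.985, edgeR). Suv39h1, which methylates the same residue at pericentric heterochromatin, fell at 12 h from 2963, 2953 and 3055 to 1031, 1149 and 1086 (-1.46 ± 0.08 SE, adjusted p = 3.91e-15, edgeR). Kdm1a, a histone demethylase, rose at 12 h, from 3129, 3126 and 3362 to 4922, 4890 and 4825 (0.61 ± 0.07 SE, adjusted p = 1.71e-08, edgeR). Of the list, only Zfp819 was called higher after induction (log2 fold change 5.89 ± 0.67 SE, adjusted p = 4.05e-08, edgeR). Its means were 1.03 normalised counts in the Control line and 70.0 in the Activator line. Dnmt3b had the largest fall after induction, from a mean of 411 to 136 (-1.64 ± 0.21 SE, adjusted p = 2.05e-07, edgeR). The genes that fell and the members that rose were measured in the same libraries, and a relation between them was not tested.

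**Figure D5:**
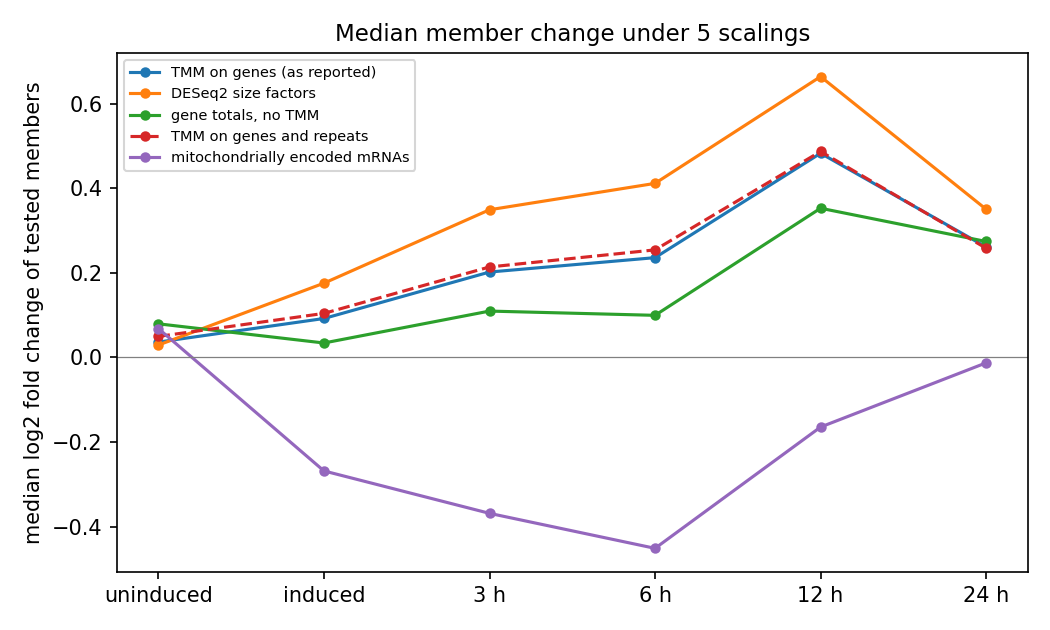
Median log2 fold change of the 104 tested ERVL-MaLR members, Activator against Control (vertical axis), at each sampling time under 5 scalings of the libraries. With the 4 scalings on genes or on genes and repeats the median is above 0 at every time and highest at 12 h (0.48 as reported), and scaled to 13 mitochondrially encoded mRNAs it is below 0 from induction on (-0.16 at 12 h).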

How the data were processed

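Total RNA depleted of ribosomal RNA was sequenced from 36 libraries. The authors trimmed reads with cutadapt, used STAR for alignment to GRCm38, ran TEtranscripts to count reads on genes and on repeat families, and deposited the raw counts. How multi-mapped reads were shared and the strand setting are not given in the sources used here, so a read in a copy inside a gene cannot be told from one of its own transcript. Libraries of the MSR-dCas9-Repressor line were not analysed here. Sequences of the families were not used here.

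Members and lists were chosen with earlier results of these data known. The table held 54842 genes, 1561 repeat families and 1 unnamed entry, left out, with at most 0.00452% of counts. Analyses used R 4.3.3, edgeR 4.0.16, limma 3.58.1 and DESeq2 1.42.0. All 36 libraries were fitted together (12 groups plus replicate number; the study used DESeq2 with replicate, time point and condition as terms) with robust quasi-likelihood on 1492 families kept by filterByExpr, and took library sizes and TMM from genes only. P-values were adjusted by Benjamini-Hochberg over all families, and calls needed an adjusted p under 0.05 and a log2 fold change beyond 0.5. Each standard error is the absolute log2 change over the root of its F statistic. Normalised counts are counts scaled to 41607400 TMM-scaled gene counts. Two-sided exact permutation tests were used for percentages and ratios. Intervals and floors (3 counts over a group) cover counting error only.

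Named were called members whose mean reached 100 normalised counts: up to 8 of the largest changes each way after induction and at 24 h, and 3 each way at other times. The 2 most abundant members of each name group, and members called in comparisons with 5 or fewer calls, were also named. Alternatives were other scalings, DESeq2, other limits and filters, the groups compared alone, no replicate number, genes and families together, and leaving out replicates. On simulated data with 200 changed of 1442 families in the induced comparison, 196 were recovered, with 3 false calls. Whether this recovery holds for the calls reported here was not tested. No pair of replicates agreed within sampling noise.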

Additional observations from a re-analysis of the deposited data

Results flagged for a closer look

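The change on induction was compared between the lines with an interaction term in the same edgeR fit, and 9 members differed (8 more raised and 1 more lowered in the Activator line), beside 21.6% of all families. The difference of log2 changes was 4.02 for MLT1I-int, 1.08 for MLT1A1-int, 0.81 for MLT1J-int, 0.60 for MTEb-int, 0.57 for ORR1C1-int and -0.57 for ORR1F-int. The other families named after induction were not called here. They were MLT1G1 (0.29, adjusted p = 0.755), MLT1G3-int (0.59, adjusted p = 0.135) and MLT1D-int (-0.53, adjusted p = 0.0887, edgeR). ORR1A4-int, at 0.48, did not reach the limit of 0.5. Leaving out single libraries or replicate numbers gave 2 to 18 calls: 2 without every replicate 1 or every replicate 3, 18 without every replicate 2, 5 without Activator uninduced replicate 1 and 15 without Activator induced replicate 2.

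The change from uninduced to 24 h differed between the lines for 19 members, all more raised in the Activator line, beside 20.8% of all families, and for 4 members when scaled to mitochondrially encoded mRNAs. The difference of log2 changes was 3.12 for MLT1I-int, 1.53 for MLT1A1-int, 1.04 for MLT1F1-int, 0.74 for ORR1C1-int, 0.68 for MT-int, 0.63 for MTEb-int, 0.62 for MLT1J-int and 0.62 for ORR1A4-int. Of the families named at 24 h, MLT1G1 (0.54, adjusted p = 0.568) and MLT1G3-int (0.62, adjusted p = 0.123, edgeR) were not called here. The count was 4 without every replicate 1, 5 without Activator 24 h replicate 1, 12 without every replicate 3, 11 without Control uninduced replicate 2, 10 without Control uninduced replicate 3, 10 without Activator uninduced replicate 1 and 11 without Activator uninduced replicate 2. Outliers were not tested, since each group has 3 libraries.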

How the results depend on the processing

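Counts of calls changed with the scaling, the fold limit and the libraries used. Scaled to mitochondrially encoded mRNAs, calls between the lines at 3, 6, 12 and 24 h were 47 (11 higher, 36 lower), 49 (9 and 40), 21 and 9. After induction 6 members were higher and 10 lower between the lines. Of all repeat families 42.3% were called after induction and 56.9%, 57.8%, 50.5% and 18.3% at the later times. In this scaling the Activator line had 56 calls after induction, 18 at 24 h against uninduced and 1 at 24 h against 12 h. The differences of change had 4 and 4. The summed members turned to log2 ratios of -0.47, -0.46, -0.18 and -0.0071 at 3, 6, 12 and 24 h, and at 12 h MLT1A0 to -0.31, MLT1B to -0.25, MTD to -0.29, MTC to -0.31, ORR1D1 to -0.39 and ORR1F to -0.42. With DESeq2 size factors the calls were 46 at 6 h and 85 at 12 h, beside 48.7% and 59.0% of all families. They were 53 for the Activator line at 24 h against uninduced and 8 at 24 h against 12 h. The summed log2 ratio after induction was 0.0663 instead of -0.02. With gene library sizes without TMM the calls were 33 at 12 h, beside 47.1% of all families. They were 47 at 24 h against uninduced and 11 for the difference to 24 h.

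With a limit of 0 the calls were 43, 46, 86 and 41 at 3, 6, 12 and 24 h and 77 for the Activator line at 24 h against uninduced. With a limit of 1 they were 8 after induction, 15, 16, 20 and 11 at the later times, 7 and 12 for the Activator line induced and at 24 h against uninduced, and 5 and 9 for the differences of change. Among families with a mean of at least 100 they were 11 after induction, 17 at 3 h, 14 at 24 h, 9 (Activator induced against uninduced) and 12 (difference to 24 h). Fitted to the groups compared alone, 9 members were called after induction and 1 in the Control line at 24 h. DESeq2 called 1 member in the Activator line at 24 h against 12 h, and genes and families together gave 5.

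Correlations of deviations between same-numbered samples of the lines were -0.117 to 0.380, 11 of 18 above 0.1: all 6 pairs of replicate 1, 5 of 6 of replicate 3 and none of replicate 2. The labels name no shared culture or day, so pairing by number was not settled. Without the replicate block 0 members were called at 24 h against 12 h and 12 for the difference to 24 h, and no other count of calls moved by more than 1.5 times.

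Leaving out replicates gave ranges of calls between the lines of 0 to 0 uninduced, 11 to 26 after induction, 20 to 31, 24 to 37, 47 to 59 and 16 to 30 at 3, 6, 12 and 24 h. Within the Activator line they were 11 to 20 on induction, 1 to 10 from 12 to 24 h and 20 to 58 from uninduced to 24 h. The differences of change had 2 to 18 and 4 to 26 calls. Summed log2 ratios ran from -0.0791 to 0.10 uninduced, -0.14 to 0.17 after induction and -0.00987 to 0.22 at 3 h, changing sign in each, and from 0.11 to 0.26, 0.39 to 0.50 and 0.17 to 0.32 at 6, 12 and 24 h. The internal to LTR log2 ratio kept its sign at all times, from 0.13 to 0.19 after induction. That ratio's alternatives were chosen after seeing the data. With 3 libraries a group, exact tests could not go below p = 0.1, and sparse internal regions were limited by depth.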
